A study of Mus musculus with 6 samples.

Results

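The miRNAs mmu-miR-26a, mmu-miR-26b, mmu-miR-103, mmu-miR-107 and mmu-miR-191 (miR-26a and so on in what follows) were measured in activated mouse macrophages. They were taken by their names on the array because they are widely expressed and often serve as references against which other miRNAs are measured, a rule that uses no measured value. All 5 were on the array, among 611 mouse miRNAs, and 4 of the 5 gave signal above background. Macrophages had been grown from the bone marrow of C57BL/6 females, with 3 samples per genotype, each on its own 1-colour array of a single slide. Both genotypes carried the MxCre transgene and had received poly(I)-poly(C), which switches on Cre through the interferon-responsive Mx promoter, a promoter not restricted to macrophages. Knockout mice were RBP-J f/f and so lost RBP-J, the DNA-binding partner through which Notch receptors act on transcription. The control mice, titled WT in the labels, were RBP-J f/+, so that 1 of their alleles was also open to deletion. All macrophages had been exposed to bacterial lipopolysaccharide (LPS) for 24 h, and no unstimulated sample was part of the comparison. Nothing in the labels ties the numbered replicates to different mice or cultures, and the p-values therefore cover the spread among these samples, which may be technical. In such bulk RNA a lower signal from fewer expressing cells cannot be told apart from less RNA per cell. The age of the mice is not in the labels. The array does not report Rbpj mRNA, and the deletion was not checked here.

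A miRNA is a short RNA that guides Argonaute proteins to messenger RNAs, mostly by pairing through its seed, bases 2 to 8 from the 5′ end. miRNAs with the same seed have largely overlapping targets and are counted as a family. The miR-26 genes lie in introns of genes for small C-terminal domain phosphatases, and miR-26 is known for restraining EZH2 and cell-cycle genes. The miR-103 and miR-107 genes lie in introns of pantothenate kinase genes, which make coenzyme A, and these miRNAs are known for acting on Dicer and on insulin signalling. miR-191 is made together with miR-425 from 1 primary transcript and is found in many tissues and in blood cells.

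The mature sequences are shown, seed in capitals, because the members fall into 3 seed groups whose signals are compared below. They come from RefSeq, build GRCm38.p6, where all 5 array names were matched through their current arm names.
miR-26a (miR-26a-5p): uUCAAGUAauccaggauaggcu
miR-26b (miR-26b-5p): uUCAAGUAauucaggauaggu
miR-103 (miR-103-3p): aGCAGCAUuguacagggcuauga
miR-107 (miR-107-3p): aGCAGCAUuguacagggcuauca
miR-191 (miR-191-5p): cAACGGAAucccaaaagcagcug
Counted from the 5′ end, miR-26b differs from miR-26a by C11U and C21U and is 21 rather than 22 bases long. miR-107 differs from miR-103 by G22C alone, and both are 23 bases long. Among 1679 mature mouse miRNAs in the RefSeq table, the seed UCAAGUA belonged to miR-26a and miR-26b only, GCAGCAU to miR-103 and miR-107 only, and AACGGAA to miR-191 alone.

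Each of the genes lies within the span of a protein-coding gene. miR-26a is encoded at chr9:119031811-119031832 within Ctdspl and at chr10:126995543-126995564 within Ctdsp2, and miR-26b at chr1:74394324-74394344 within Ctdsp1, all on the plus strand. miR-103 is encoded at chr11:35782447-35782469 within Pank3 and at chr2:131288103-131288125 within Pank2, both on the plus strand, and miR-107 at chr19:34820700-34820722 within Pank1 on the minus strand. miR-191 lies at chr9:108568325-108568347 within Dalrd3, on the plus strand. The array cannot tell apart the gene copies that give an identical mature miR-26a or miR-103.

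The miRNAs listed as myeloid markers were present on the arrays and those listed for other cell types were not detected. All 6 miRNAs listed as myeloid, miR-223, miR-142-3p, miR-142-5p, miR-155, miR-146a and miR-21, were above background on every array. Whether they are restricted to myeloid cells was not tested. None of 20 markers of lymphoid, erythroid, endothelial, stromal, epithelial, muscle, liver or neuronal cells was above background on any array. Between 127 and 141 miRNAs were above background per array, and the summed miRNA signal ran from 45121 to 77324 intensity units. The knockout arrays were dimmer, with a 75th percentile of signal 0.46 lower on the log2 scale (control at 0.23 and knockout at -0.23 around their common mean). This difference in brightness bears on every unscaled value given here.

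The miR-191 probes gave no signal well above background on these arrays. It was read by 4 probes of 5 spots each, and 0 of the 20 spots passed the scanner's test for signal well above background on each of the 6 arrays. Its total signal was 4.65, 0.931 and 6.88 intensity units in control replicates 1, 2 and 3. In the knockout replicates it was 3.77, 0.511 and 3.02 units. The scanner software gave these totals errors of 1.34 to 1.75 units, and it called the miRNA undetected on all arrays. The 2 groups overlapped, and no fold is given since no spot passed the test in either group. The median miR-191 spot stood 3.36 units above the median negative-control spot in control replicate 1, where 90.3% of 176 negative-control spots were lower. In control replicate 3 it stood 3.83 units above, with 94.9% of 178 lower. In control replicate 2 and knockout replicate 2 it lay below the negative controls' median, with 16.6% and 13.7% of the negative-control spots lower. In knockout replicates 1 and 3 the shares were 64.0% and 55.1%. miR-191 therefore entered no test and could not serve as a reference on these arrays. In the authors' series matrix it stood between 0.024 and 2.53 on the log2 scale.

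**Figure D1:**
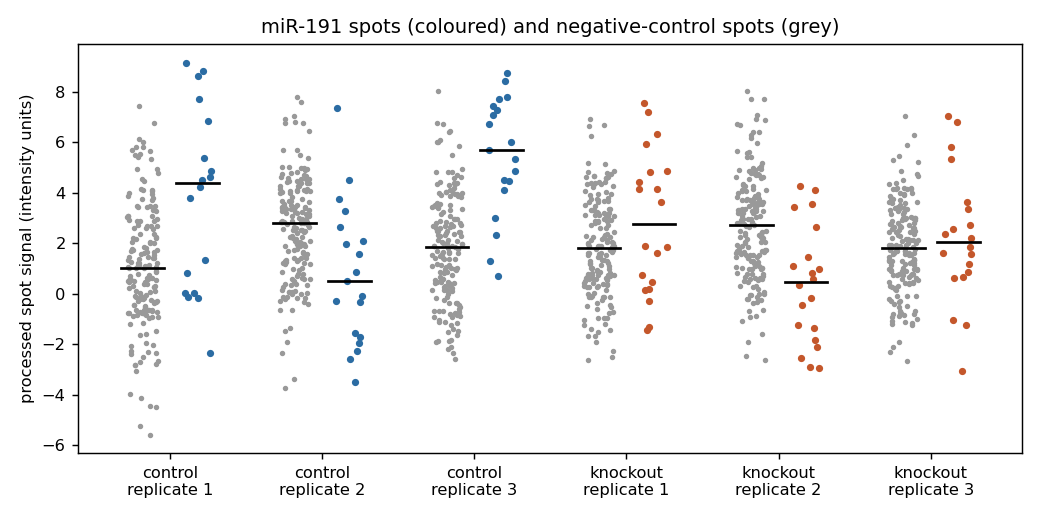
Processed signal of single spots (y axis, intensity units) on each of the 6 arrays, with negative-control spots in grey, miR-191 spots in colour by genotype and horizontal lines at the medians. The miR-191 spots overlap the negative controls on every array, and their median minus that of the negative controls runs from -2.30 units in control replicate 2 to 3.83 in control replicate 3.

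Other products of the same primary transcript were measured above background. The opposite arm of the miR-191 hairpin, listed as miR-191*, was above background on 5 of the 6 arrays. Its total signal was 13.5, 12.9 and 16.8 units in control replicates 1, 2 and 3, and 14.1, 13.6 and 14.9 units in the knockout replicates. The groups overlapped. miR-425, the partner of miR-191 in Dalrd3, was above background on all 6 arrays, with totals of 42.6, 30.9 and 42.8 units in the control and 33.4, 21.98 and 37.4 units in the knockout replicates. Its fitted difference, knockout minus control, was 0.033 log2 units (SE 0.17, limma adjusted p = 0.960). Of the other hairpin arms examined, miR-26b* and miR-425* were above background on no array. Signals of different probes depend on the probe as well as on the miRNA, so these totals do not rank the miRNAs against each other. How well the miR-191 probes capture miR-191 was not tested, and a low level in the cells cannot be told apart here from poor capture by the probes.

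The 2 miR-26 miRNAs were clearly measured on every array. miR-26a, encoded by both Ctdspl and Ctdsp2, had a total signal of 213.7, 227.7 and 370.4 units in control replicates 1, 2 and 3. Its knockout values were 221.3, 194.7 and 204.3 units. Control replicate 3 stood apart as the highest array, and the other 5 arrays lay within 194.7 to 227.7 units with the genotypes mixed.

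miR-26b, encoded within Ctdsp1, was likewise brightest on 1 control array. Its totals were 178.6, 186.4 and 275.4 units in the control and 173.3, 150.1 and 191.2 units in the knockout replicates. Control replicate 3 was again highest, and the groups overlapped.

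miR-103, the product of the Pank3 and Pank2 loci, varied less. Its totals were 205.3, 160.6 and 204.8 units in the control and 165.1, 148.0 and 153.4 units in the knockout replicates. Control replicate 2 lay below knockout replicate 1, so the groups overlapped by that 1 pair.

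miR-107, from the Pank1 locus, followed miR-103. Its totals were 221.8, 170.4 and 205.7 units in the control and 179.8, 150.4 and 158.9 units in the knockout replicates. Here too control replicate 2 was the lowest control array and lay below knockout replicate 1. Each of these 4 miRNAs was read by 2 probes of 10 spots, all 20 spots were above background on every array, and none was saturated. Spots of 1 probe on 1 array differed with a coefficient of variation of 0.903% to 8.37%.

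**Figure D2:**
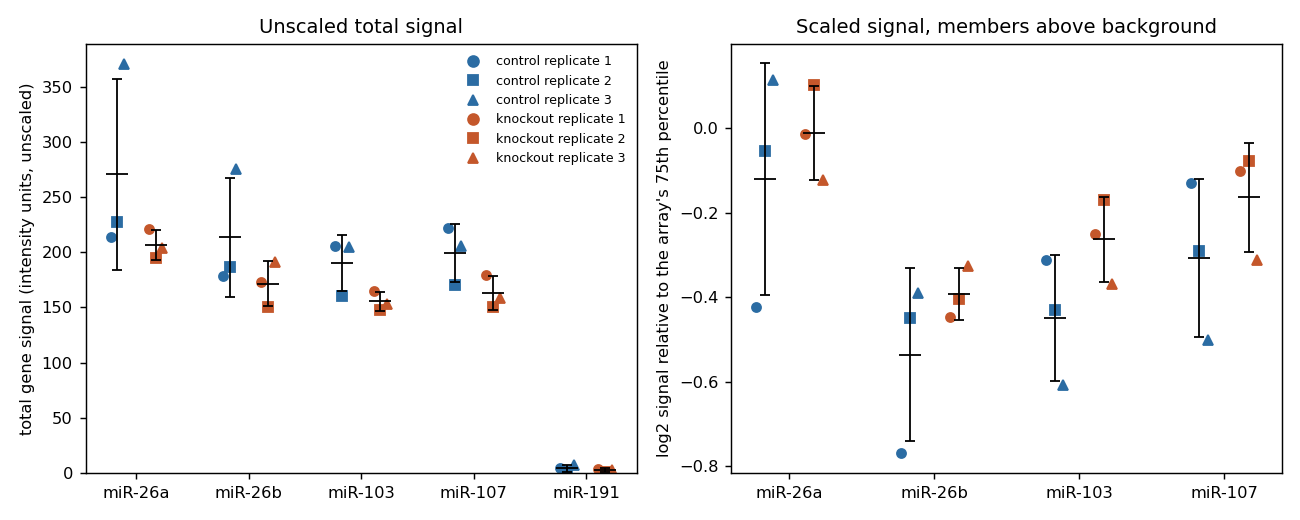
Left, unscaled total signal (intensity units) of the 5 miRNAs; right, log2 signal of the brightest probe relative to the array's 75th percentile for the 4 above background. Points are single arrays (blue control, orange knockout, symbols by replicate), and black bars are the mean and SD of 3 arrays. miR-191 sits near 0 at left, control replicate 3 is highest for miR-26a and miR-26b at left, and at right the genotypes overlap for all 4.

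After scaling, none of the 4 members above background passed the test for a difference between genotypes. Scaled values are log2 of the brightest probe's signal relative to the array's 75th percentile over probes above background on all arrays. miR-26a was at -0.42, -0.05 and 0.11 in control and -0.01, 0.10 and -0.12 in knockout replicates 1, 2 and 3. miR-26b was at -0.77, -0.45 and -0.39 in control and -0.45, -0.41 and -0.33 in knockout. Control replicate 1 was the lowest array for both. miR-103 was at -0.31, -0.43 and -0.61 in control and -0.25, -0.17 and -0.37 in knockout. miR-107 was at -0.13, -0.29 and -0.50 in control and -0.10, -0.08 and -0.31 in knockout. For this pair control replicate 3 was the lowest array.

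The genotype test was limma's moderated test over the 135 miRNAs above background on at least 3 arrays, with Benjamini-Hochberg adjustment. miR-26a differed by 0.11 (SE 0.19, 95% interval -0.31 to 0.53, limma adjusted p = 0.793), knockout minus control. miR-26b differed by 0.14 (SE 0.17, interval -0.24 to 0.52, limma adjusted p = 0.748). miR-103 differed by 0.19 (SE 0.16, interval -0.18 to 0.55, limma adjusted p = 0.668). miR-107 differed by 0.14 (SE 0.17, interval -0.24 to 0.53, limma adjusted p = 0.748). With this scaling all 4 intervals include 0 and exclude a 2-fold difference in either direction. They cover the spread among these arrays, which may be technical, and not the choice of scaling. In folds, scaled knockout signal was 1.08 times that of control for miR-26a, the smallest of the 4, and 1.14 times for miR-103, the largest. Over all tested miRNAs limma called 0 of 135, or 0.0%, with 6 (4.44%) at an unadjusted p under 0.05, and none of these 6 was a member. The genotypes' arrays were apart for 0 of the 4 members, against 10.4% of all tested miRNAs, or 7.41% counting those higher in the knockout.

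The sign of these differences turned with the scaling. The median tested miRNA itself stood 0.11 higher in the knockout, and relative to it miR-26a, itself the median miRNA, was at 0, miR-26b at 0.034, miR-103 at 0.078 and miR-107 at 0.034. With no scaling between arrays the differences were -0.35 (SE 0.24) for miR-26a, -0.31 (SE 0.23) for miR-26b, -0.27 (SE 0.18) for miR-103 and -0.31 (SE 0.19) for miR-107. These correspond to control signals 1.27, 1.24, 1.20 and 1.24 times those of the knockout, beside a median tested miRNA at -0.31. Under this setting the smallest limma adjusted p of a member was 0.314. Relative to that median the 4 members lay between -0.04 and 0.04, close to what the median miRNA did. Under other settings they lay further from it. Relative to the median they were at -0.15 to -0.08 with another background correction (normexp), and at 0.04 to 0.11 with quantile scaling.

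Position codes in the array barcodes began with 1 for replicates 1 and 2 of both genotypes and with 2 for replicates 3. Reading these codes as slide columns 1 and 2 is an inference. The difference of miR-103 was 0.16 in column 1 and 0.24 in column 2, and that of miR-107 was 0.12 and 0.19. For miR-26b it was 0.18 and 0.06. miR-26a stood at 0.28 in column 1 and at -0.24 in column 2, where each genotype had a single array. With slide column as a block no call appeared, with limma adjusted p from 0.622 to 0.805 over the 4 members. Without control replicate 1 the difference of miR-26a turned to -0.04.

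**Figure D3:**
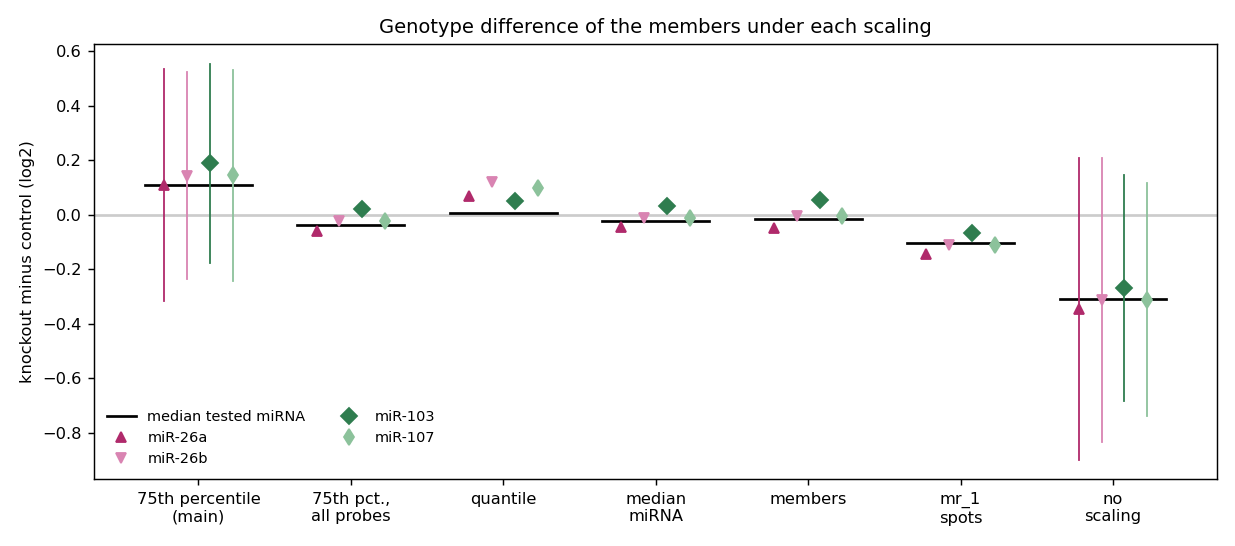
Knockout minus control difference (log2) of the 4 members above background (symbols) and of the median tested miRNA (black line) under 7 scalings along the x axis, with 95% limma intervals drawn for the 75th percentile and for no scaling. All 4 members lie above 0 with the 75th percentile and below 0 with no scaling, where the black line moves from 0.11 to -0.31.

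The ratio within each seed pair, which does not depend on scaling between arrays, varied less than that of most pairs of miRNAs. With the brightest probe of each miRNA, it was nearly fixed for miR-103 to miR-107 and less so for miR-26a to miR-26b. With the dimmer probes miR-103 lay above miR-107 on every array, and the spread of that ratio was not computed. The log2 ratio of miR-103 to miR-107 was -0.18, -0.14 and -0.11 in control and -0.15, -0.09 and -0.06 in knockout replicates 1, 2 and 3, with an SD of 0.045 over the 6 arrays. Among 5995 pairs of the 110 miRNAs above background on all arrays, 3 had a smaller SD of their ratio, and the median pair had 0.35. The log2 ratio of miR-26a to miR-26b was 0.35, 0.39 and 0.50 in control and 0.43, 0.51 and 0.20 in knockout replicates, with an SD of 0.11, and 1.47% of pairs had a smaller one. Across the seed groups the ratios varied more, with SDs of 0.24 to 0.29 for the miR-26 miRNAs against miR-103 or miR-107.

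No difference between genotypes was detected in either ratio. Knockout minus control was 0.04 for miR-103 to miR-107 (control -0.14 ± 0.04, knockout -0.10 ± 0.05, SD, n = 3; two-sided exact permutation p = 0.3, adjusted 0.6 over 2 ratios). It was -0.03 for miR-26a to miR-26b (control 0.42 ± 0.08, knockout 0.38 ± 0.16, SD, n = 3; two-sided exact permutation p = 0.9, adjusted 0.9). With 3 arrays against 3 no exact p below 0.1 is possible. Probe sequences were not used here, and how far the probes of a pair read the other miRNA, which differs by the bases given above, was not tested.

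How steady the members were depended on the scaling for all 4. Over the 6 scaled arrays the SD was 0.15 for miR-103, 0.16 for miR-26b, 0.16 for miR-107 and 0.20 for miR-26a, beside a median of 0.24 and a range of 0.074 to 1.06 for the 110 miRNAs above background on all arrays. Counted from the smallest SD these were ranks 17, 18, 20 and 37. Without control replicate 1 the SD of miR-26b was 0.050 and that of miR-26a 0.10, and without control replicate 3 the SD of miR-103 was 0.10 and that of miR-107 0.11. With no scaling the ranks were 11 for miR-103, 17 for miR-107, 51 for miR-26b and 61 for miR-26a, with SDs of 0.21, 0.24, 0.31 and 0.34. The mean SD of a miRNA's log2 ratio to every other miRNA needs no scaling, and by it miR-103 was at 0.28 (rank 2 of 110), miR-107 at 0.29 (rank 7), miR-26b at 0.31 (rank 30) and miR-26a at 0.34 (rank 50). miR-103 had the smallest SD of all 110, 0.087, when arrays were scaled on the median miRNA. With each member scaled on the mean of the other 3, the ranks were 22 for miR-103, 25 for miR-26b, 41 for miR-107 and 46 for miR-26a. These ranks describe the 6 arrays and were not tested.

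**Figure D4:**
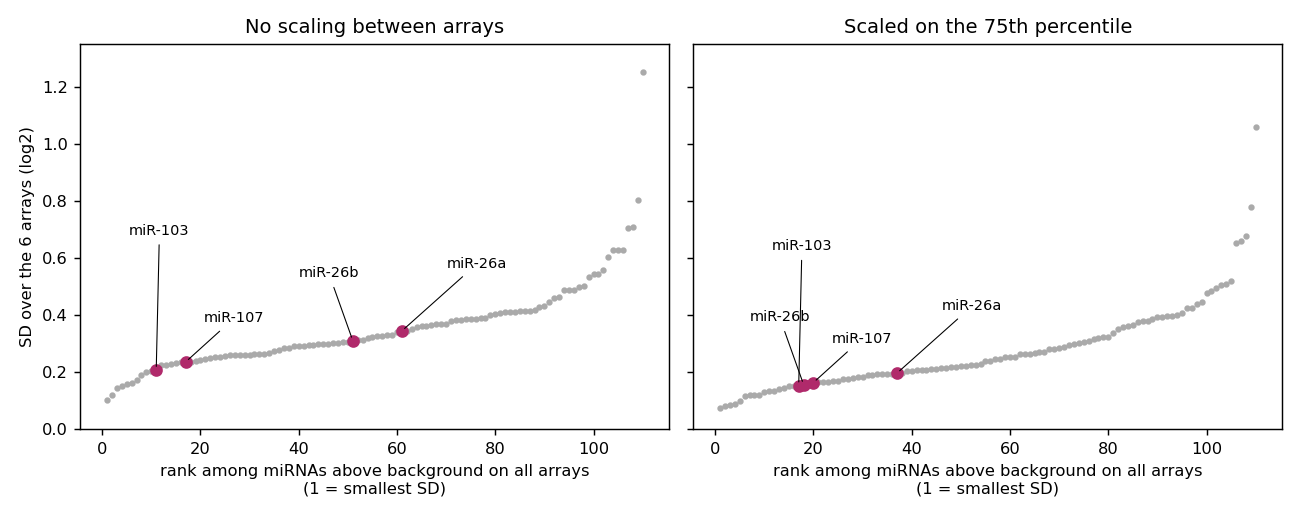
SD over the 6 arrays (y axis, log2) of the 110 miRNAs above background on all arrays, ordered from the steadiest (x axis, rank), without scaling at left and scaled on the 75th percentile at right. The 4 members are in purple; miR-103 and miR-107 rank 11 and 17 at left, where miR-26b and miR-26a rank 51 and 61, and at right the 4 lie between ranks 17 and 37.

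The arrays' order of brightness depended on the member used as the reference. Around its mean over the 6 arrays, unscaled log2 signal in control replicate 1 was 0.26 for miR-103 and 0.32 for miR-107 but -0.14 for miR-26a and -0.093 for miR-26b. In control replicate 3 it was 0.68 for miR-26a and 0.58 for miR-26b, against 0.25 for miR-103 and 0.24 for miR-107. The 75th percentile stood at 0.21 and 0.50 on these arrays and the median miRNA at 0.16 and 0.27. In knockout replicate 2 all 4 members were low, from -0.36 to -0.23. The mr_1 control spots are not miRNAs of the sample. Their difference, knockout minus control, was -0.20, beside -0.31 for the mean of the 4 members and -0.30 for the median miRNA. Array by array they did not follow the 75th percentile throughout. In control replicate 1 they stood at 0.24, beside 0.21 for the percentile. In control replicate 3 they stood at 0.027, beside 0.50, and in knockout replicate 2 at 0.020, beside -0.41.

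**Figure D5:**
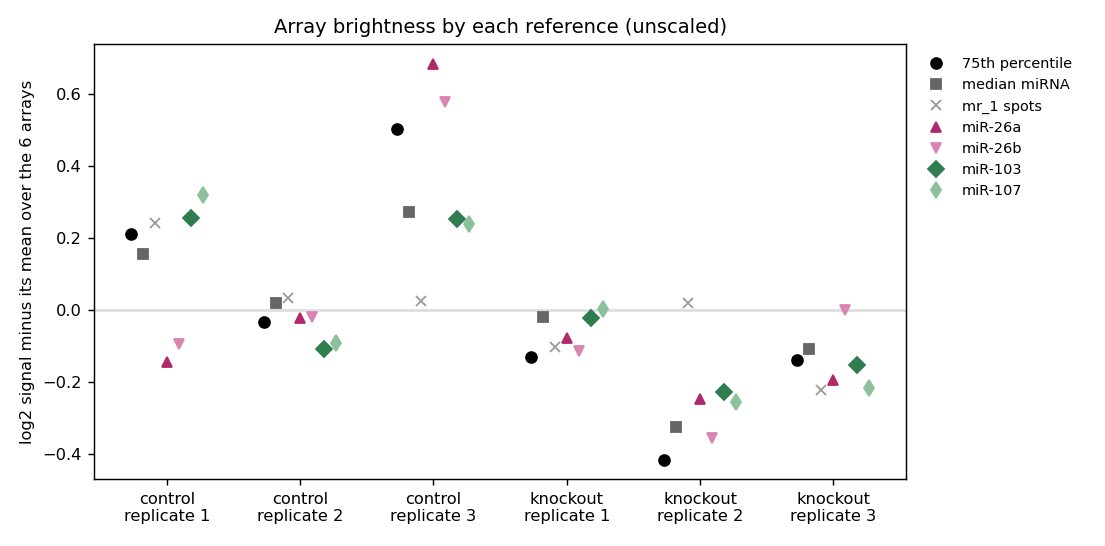
Unscaled log2 signal minus its mean over the 6 arrays (y axis) for 7 possible references on each array (x axis). miR-26a and miR-26b stand at 0.68 and 0.58 in control replicate 3, where miR-103 and miR-107 stand at 0.25 and 0.24, and the 75th percentile lies between the pairs.

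No miRNA was called with the members as the reference, and the split of higher against lower values varied with the member. With each array scaled on the mean of the 4 members, 63 tested miRNAs were above and 72 below control, the median difference was -0.014 and limma called 0 of 135, with 1 higher and 5 lower at an unadjusted p under 0.05. The 75th percentile gave 97 above and 38 below, with 5 higher and 1 lower at that level. With a single member as the reference, 134 miRNAs remained to be tested. miR-26a gave 69 above and 65 below, miR-26b 65 and 69, miR-107 64 and 70, and miR-103 55 and 79. limma called 0 with each of them. At an unadjusted p under 0.05, 0 were higher and 1 lower in the knockout with miR-26a, 1 and 1 with miR-26b, 1 and 8 with miR-107, and 0 and 13 with miR-103. Since the members lay close to the median miRNA in unscaled signal, scaling on them moves the median difference towards 0 by construction. Scaled on the other 3 members, miR-26a stood at -0.049, miR-26b at -0.0035, miR-103 at 0.055 and miR-107 at -0.0032.

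Other miRNAs in common use as references did not pass the test either. Of 13 examined, 10 were above background on all arrays, while miR-423-3p, miR-320 and miR-186 were above background on none. limma called 0 of the 10 in either direction. miR-425, of the miR-191 transcript, is among them. Their median difference was 0.047, beside 0.14 for the 4 members and 0.11 for all tested miRNAs. Of the 10, 8 had an SD below the median of 0.24. let-7a was the steadiest of all 110 miRNAs by the scaled SD, at 0.074, and miR-16 ranked 4 at 0.087. miR-92a, of the miR-17 polycistron, and miR-25, of the miR-106b cluster, were the least steady of the 10, at 0.36 and 0.25.

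miR-103 and miR-107 share the letters AGCAGCA with the miR-15/16 family, shifted by 1 base. In miR-103 and miR-107 these letters start at base 1 and in miR-16 at base 2, so that the seeds differ, as a pair of sequences shows.
miR-107: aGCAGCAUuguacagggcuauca
miR-16: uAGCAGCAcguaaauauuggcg
Of 6 relatives examined 5 were tested, miR-497 being above background on no array, and limma called 0 of the 5 in either direction. Their median difference was -0.019, that of miR-16 itself, with miR-15b highest at 0.069 (SE 0.17) and miR-322 lowest at -0.42 (SE 0.26, limma adjusted p = 0.637).

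The miRNAs nearest in pattern to each member were those with the smallest SD of the log2 ratio over the 6 arrays, among 106 other miRNAs above background on all arrays. For miR-103 these were let-7b at 0.069, miR-30c at 0.077 and miR-361 at 0.078. For miR-107 they were miR-361 at 0.056, let-7b at 0.070 and miR-484 at 0.074. let-7b and miR-361 were thus near both. For miR-26b they were let-7f at 0.068, miR-296-5p at 0.12 and miR-29b at 0.14, and for miR-26a miR-15a at 0.14, miR-185 at 0.14 and miR-296-5p at 0.15. The median SD over the 106 was 0.25 for miR-103, 0.24 for miR-107, 0.29 for miR-26b and 0.32 for miR-26a.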

How the data were processed

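Each sample's Cy3-labelled total RNA (0.5 µg) was read on 1 Agilent mouse miRNA array, design 021828. The deposited spot intensity values are background-subtracted and detrended but not normalized between arrays, and the headers name Feature Extraction 10.5.1.1, where the submitters' processing notes give Agilent Feature Extraction 9.1. Gene-level intensity totals were deposited as well. For the log2 values of the authors' series matrix no method is stated in the labels; they served as an alternative.

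For each of 1759 mouse probes the median intensity of unflagged spots was divided by the array's 75th percentile over 200 probes above background on all arrays (at least 50% of spots flagged well above background). Values under the 5th percentile of scaled detected signals were set to it before log2 was taken. A miRNA took its brightest probe. Genotypes were compared with limma 3.58.1 in R 4.3.3 without covariates. The procedure was checked on simulated data with independent noise, differences of 2-fold or more and no brightness shift between arrays. It was not checked for differences as small as those of the members. The rule for the members uses names alone, but they and the lists were chosen with earlier results of these data known. Named miRNAs were the members, the 3 nearest in pattern to each, the other arms and neighbours, and the extremes of each list. RefSeq tables of GRCm38.p6 gave sequences, positions and host genes. The number of arrays limits the precision.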

Additional observations from a re-analysis of the deposited data

How the results depend on the processing

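limma called 0 miRNAs under each of 28 alternatives, leave-one-out fits included (0 to 0), and none of 108 recomputed member differences passed the threshold (limma adjusted p 0.314 to 1). Of the 108, 81 kept their sign, 26 turned and 1 was exactly 0, that of miR-103 in the series matrix. The 81 include settings that could not move a member's difference and so say nothing about its sign. These were the changes of floor and of filter, the blocks for replicate and slide column, and another variance estimate in limma. In the order miR-26a, miR-26b, miR-107 the turned differences were -0.059, -0.025 and -0.024 with the 75th percentile over all probes, -0.046, -0.012 and -0.012 on the median miRNA, -0.049, -0.0035 and -0.0032 on the mean of the other 3 members, and -0.078, -0.044 and -0.044 on miR-103 alone. With no scaling they were -0.35, -0.31 and -0.31, and -0.27 for miR-103; on the mr_1 spots they were -0.14, -0.11 and -0.11, and -0.066 for miR-103. miR-26a also turned to -0.034 on miR-26b or miR-107 alone, -0.021 with gene-level totals, -0.041 without control replicate 1 and -0.098 without both that array and knockout replicate 2; miR-26b was at -0.00022 on miR-107 alone. Leaving out each array gave -0.041 to 0.23 for miR-26a, 0.03 to 0.22 for miR-26b, 0.11 to 0.26 for miR-103 and 0.05 to 0.23 for miR-107. The ratio difference ranged from -0.10 to 0.055 for miR-26a to miR-26b, turning to 0.010 without control replicate 3 and 0.055 without knockout replicate 3, and from 0.02 to 0.07 for miR-103 to miR-107, which turned to -0.046 in the series matrix and -0.039 with the dimmer probes.

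The labels do not say that a replicate number was shared between genotypes, and the numbers were not taken as pairs. Deviations from the group mean correlated at 0.17, -0.07 and 0.37 between same-numbered arrays across 135 miRNAs. Between differently numbered arrays the correlations ran from -0.29 to 0.16, and pairing was not settled. A replicate block cannot move a mean difference here, since each number has 1 array per genotype. Member differences stayed at 0.11, 0.14, 0.19 and 0.14 for miR-26a, miR-26b, miR-103 and miR-107, and ratio differences at -0.03 and 0.04. The miR-103 to miR-107 ratio was higher in the knockout in every same-numbered pair. Its two-sided sign-flip permutation p was 0.25, the smallest so few pairs can give, beside an unpaired exact permutation p of 0.3. The miR-26a to miR-26b ratio changed in both directions. With this block limma called 0 miRNAs, its smallest adjusted p being 0.485 beside 0.637 without. At a limma unadjusted p under 0.05 there were 13 beside 6. The planned scaling on miR-191 alone or on all 5 members was not run, since miR-191 was above background on no array, and its genotype difference was not fitted; scaling on the 4 others, on each of them, and the dimmer probes were chosen after seeing the data.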

Other observations

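In the authors' series matrix, miR-103 had 1 identical value, 7.42 on the log2 scale, in all 6 columns. Its total signal held rank 44 among all entries of each array's gene-level table. That total itself ran from 148.0 to 205.3 units, so the single value does not mean a constant signal. The value 7.47 stood for miR-26a in control replicate 1 and for miR-107 in control replicate 2. Of 212 mouse miRNAs above the column minimum in every column, 2 had a single value throughout. In the same table miR-107 ranged over 0.14, miR-26a over 0.57 and miR-26b over 0.75.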
